A study of Homo sapiens with 21 samples.

Results

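The interferon-stimulated genes are genes that cells switch on when an interferon binds its receptor, and most of their products act against viruses. Their RNA was counted here in 21 subcutaneous tumors grown from A549-Luc2 cells, a luciferase-expressing derivative of the human lung adenocarcinoma line A549. The 37 genes were taken by symbol from a list of standard members of this programme, drawn up with earlier results of these data known, and all 37 were found among the 60651 human genes in the count table. The tumors were grown in the hind flank of female athymic nu/nu mice aged 6 to 8 weeks, a host that lacks a normal thymus and mature T cells. The animals were dosed by daily oral gavage with Oxy186 or Oxy210, 2 semisynthetic oxysterols, at 50 mg/kg, or with the vehicle alone (control). The vehicle was a mixture of DMSO, ethanol, PEG400 and corn oil and was shared by all 3 groups. Each group held 10 mice, and 7 tumors of each group were sequenced. The question put to these genes was how strongly the programme was on in the tumor cells, how it varied from tumor to tumor, and whether either compound moved it.

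Type I and type III interferons bind receptors on the cell surface that activate the kinases JAK1 and TYK2. The kinases phosphorylate STAT2, which enters the complex ISGF3 together with IRF9. ISGF3 binds the interferon-stimulated response element (ISRE) in the promoters of its targets, whereas the response to interferon gamma runs mainly through a different element, the GAS. Tumor cells often keep part of the programme on without any added interferon, which is what is meant here by interferon tone.

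The ISRE core (GAAANNGAAA, either strand) was searched from 250 bases before to 50 bases after the RefSeq start site, on GRCh38.p14. RefSeq promoters were matched for 30 of the 37 genes. The core was present in 19 of the 30 (63.3%), compared with 996 of 27305 promoters of all genes (3.65%). The GAS core (TTCNNNGAA, a palindrome that can overlap an ISRE) was present in 9 of the 30 and in 7.88% of all promoters. A match describes letters in the window and is not evidence of binding. Of the 6 stretches below, 4 belong to genes that were highest in the same 2 tumors, as described below (IFIT1, ISG15, IFI6, IFI27). The other 2 belong to genes with the same element that were not above all other tumors in both (HERC5, SAMD9). HERC5 was still the highest in 1 of the 2 tumors, Oxy210 replicate 4. They are written 5′ to 3′ on the strand of the gene, with ISRE core matches in capitals.
IFIT1: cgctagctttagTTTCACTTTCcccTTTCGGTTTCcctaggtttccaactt
ISG15: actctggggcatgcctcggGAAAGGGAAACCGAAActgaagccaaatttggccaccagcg
IFI6: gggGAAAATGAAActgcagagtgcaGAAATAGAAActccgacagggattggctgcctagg
IFI27: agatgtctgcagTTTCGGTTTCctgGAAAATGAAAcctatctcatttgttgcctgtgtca
HERC5: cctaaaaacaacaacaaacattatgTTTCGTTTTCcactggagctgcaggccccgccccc
SAMD9: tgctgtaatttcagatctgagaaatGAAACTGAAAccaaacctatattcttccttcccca

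The IFIT1 stretch lies at chr10:89392495-89392545 on the plus strand, and the core nearest to the start site begins at −103. The ISG15 stretch is chr1:1013365-1013424 (plus strand, core at −107), and the IFI27 stretch is chr14:94110616-94110675 (plus strand, core at −95). The IFI6 stretch is chr1:27672251-27672310 on the minus strand, with its nearest core at −93. The HERC5 stretch is chr4:88457020-88457079 (plus strand, core at −74), and the SAMD9 stretch is chr7:93118081-93118140 (minus strand, core at −136). In GENCODE 44 none of the 6 overlaps an exon of its own gene. Those of ISG15 and IFI27 lie within introns of longer transcripts of the same genes, and the other 4 lie upstream of the annotated gene, that of IFIT1 also within an intron of its neighbour LIPA.

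The libraries held between 13787493 and 17865119 counts assigned to human genes. Reads had been aligned to a combined human and mouse reference and the human alignments kept. These counts are therefore meant to describe the engrafted tumor cells rather than the interferon response of the mouse host. The share of mouse reads assigned to human genes was not measured here. The A549 markers were abundant: 8 markers (keratins 8, 18 and 19 and the xenobiotic enzymes AKR1B10, AKR1C1, ALDH1A1, NQO1 and ALDH3A1) summed to between 14625 and 27481 CPM (the count divided by the scaled library total). Most human markers that define other cell types were near 0, with exceptions in each list. The 7 leukocyte markers summed to 5.16 to 11.2 CPM, with totals over the 21 tumors of 60 counts for PTPRC, 26 for CD68, 5 for CD3E and 3 for TYROBP, but 1958 for ITGAM and 441 for CD14. The 5 endothelial markers summed to 1.25 to 5.79 CPM, with 4 counts of VWF and 3 of KDR, but 712 of PECAM1 and 240 of CDH5. The 6 fibroblast markers summed to 24.2 to 74.8 CPM, with 4 counts of COL1A2, 72 of COL3A1 and 45 of PDGFRB, but 633 of DCN and 211 of PDGFRA. COL1A1, with 12958 counts and 256 to 1031 per tumor, made up most of the fibroblast sum. In bulk RNA, fewer cells that express a gene and less RNA per cell cannot be told apart.

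2 tumors stood apart for these genes, the Oxy186 tumor of replicate 5 and the Oxy210 tumor of replicate 4. They were singled out after their values were seen, so each is described by its own value and results are given with and without both. A further 4 tumors, Oxy186 replicates 1 to 4, differed from the controls across the transcriptome in a way that followed the GC content of the genes. The log2 CPM of a gene in a tumor, minus its mean over the 21 tumors, changed by −0.51 to −0.18 for every 10 points of exon GC in those 4 tumors, against −0.15 to 0.40 in the controls. Oxy210 replicate 5 had a slope of −0.33, also below the controls. Oxy186 replicate 5 and Oxy210 replicate 4 had small slopes, at 0.08 and −0.12.

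Of the 37 genes, 34 passed a filter on low counts over the 21 tumors, among 16990 genes in all. The 3 that did not were close to undetected. RSAD2, which encodes the antiviral enzyme viperin, had 0 to 6 counts per tumor. MX2, a dynamin-like GTPase that acts against retroviruses, also had 0 to 6, and both were highest in Oxy210 replicate 4. XAF1, a pro-apoptotic protein, had 12 counts in Oxy186 replicate 5, 11 in Oxy210 replicate 4 and 0 to 3 in the other tumors.

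Levels were compared between genes as the median CPM per kilobase of merged exons over the 21 tumors. The merged exons are the union of annotated exons, from 867 bases for ISG15 to 18045 for OAS3. The order of genes therefore depends on annotated length as well as on counts. OAS1 had a median of 4738 counts over 13021 bases, and IFITM2 had 860 over 1606. Expression of the programme was uneven. The highest level was that of IFITM2, a membrane protein that blocks virus entry, at 36.5 CPM per kilobase, followed by OAS1 at 23.6. OAS1 makes the oligoadenylates that activate RNase L. IFI35 and STAT2 followed at 10.9 each, then IFI6, a mitochondrial and reticulum protein, at 9.08 and PARP14, an ADP-ribosyltransferase, at 8.95. The lowest levels among genes past the filter were those of DDX58, which encodes the RNA sensor RIG-I, at 0.079, the nucleotide kinase CMPK2 at 0.101 and IFI44L at 0.122. The standard index genes of the response differed in level. IFIT1, which binds foreign RNA caps, was at 0.794, MX1, which blocks influenza viruses, at 0.339 and IFI27 at 0.926. ISG15 was higher, at 5.13, as was IFI6, given above.

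The same split was seen within families. OAS1 and OAS3 were at 23.6 and 7.02 CPM per kilobase, while OAS2 and OASL were at 0.416 and 0.418. IFITM2 was at 36.5, IFITM3 at 5.24 and IFITM1 at 1.89, although these 3 paralogs are similar enough that reads could be shared between them. Among the signalling factors, STAT2 (10.9) and IRF7 (5.43), which amplifies interferon transcription, lay above IRF1 (1.25) and IRF9 (0.782). Of the RNA sensors, IFIH1, which encodes MDA5, was at 2.22, above DDX60 at 0.703 and DDX58 at 0.079. Some of these orders rest on exon length. Median counts were 219 for IRF7 and 229 for IRF1, and 187 for IFIH1 and 182 for DDX60.

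The genes also differed in how much they varied between tumors. The SD of log2 CPM over the 21 tumors had a median of 0.509 in the 34 genes and 0.374 over all 16990, and 0.439 and 0.374 without the 2 high tumors. In the 7 controls alone the medians were 0.378 and 0.318. IFI44L had the highest SD, at 1.19, then IFI27 and BST2, both at 0.956. IFI27 encodes a mitochondrial protein and BST2 the tether that holds budding viruses on the cell surface. The lowest SDs were those of USP18, the protease that removes ISG15 from its targets and damps receptor signalling (0.159), OAS1 (0.172) and STAT2 (0.184). The SD of BST2 rests on 1 to 19 counts per tumor. Some of the values may also hold reads from overlapping genes, since strand use in counting was not given in the sources used here: LINC02574 covers 23.1% of the exon bases of IFI6, on the same strand, and other annotated genes cover 43.2% of those of DDX58, 23.9% of IRF9 and 21.1% of IFITM1 on the same strand. IRF1-AS1 covers 22.9% of those of IRF1, on the opposite strand.

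**Figure D1:**
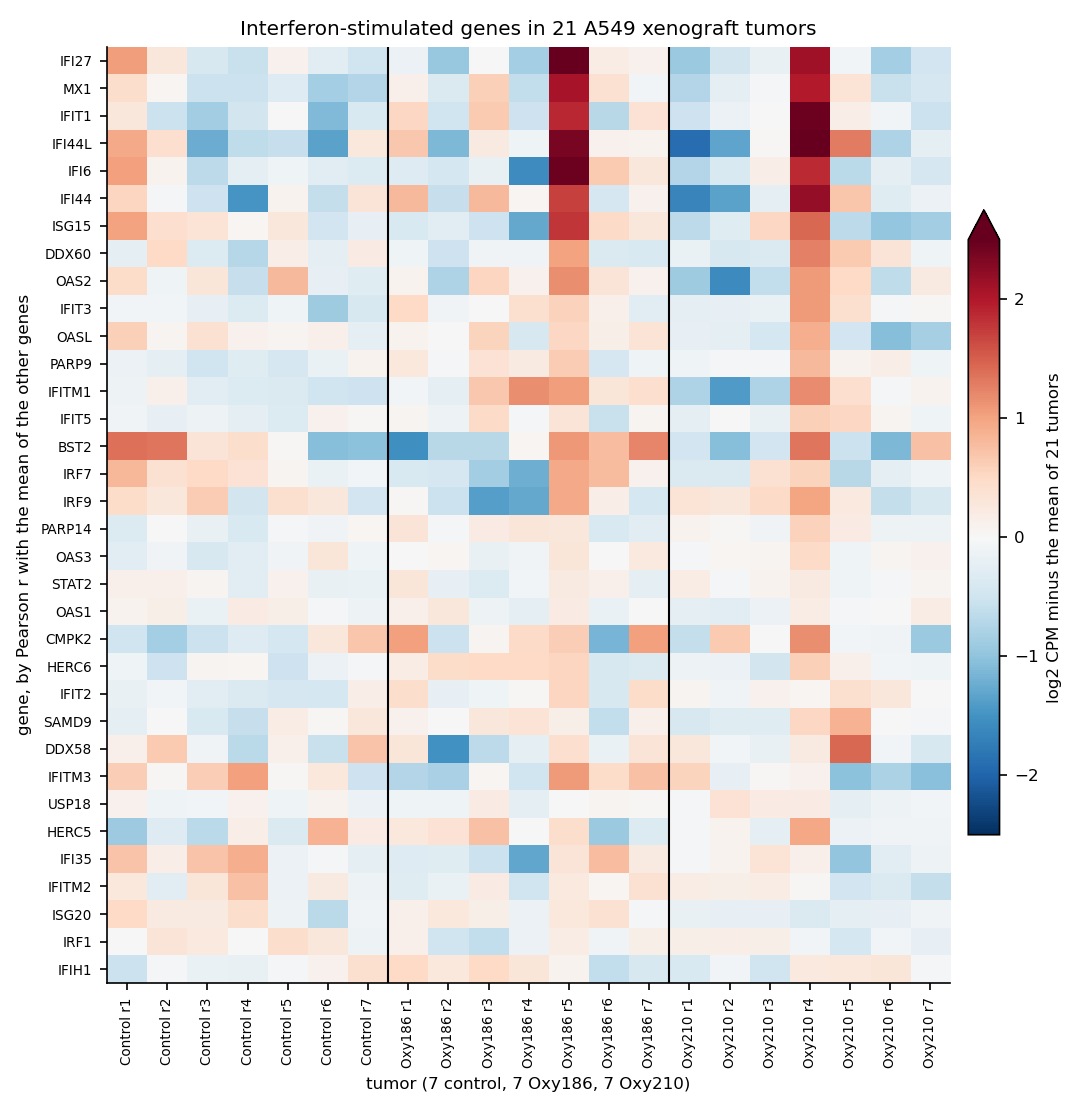
Log2 CPM of the 34 genes past the filter (rows) in the 21 tumors (columns, by group), as the difference from each gene's mean over the 21 tumors. Rows are ordered by their correlation with the mean of the other genes, and the columns of Oxy186 replicate 5 and Oxy210 replicate 4 are the darkest in the upper rows.

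The mean over the 34 genes of this difference summarises the tone of a tumor. It was 0.86 in Oxy186 replicate 5 and 0.88 in Oxy210 replicate 4. The other 19 tumors lay between −0.32 and 0.23, with control replicate 1 the next highest. The group means were −0.05 ± 0.15 in the controls, 0.08 ± 0.38 with Oxy186 and −0.03 ± 0.42 with Oxy210 (SD, n = 7 each), and the groups overlapped. The 2 compounds' groups each held 1 of the 2 high tumors and no control tumor reached them.

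**Figure D2:**
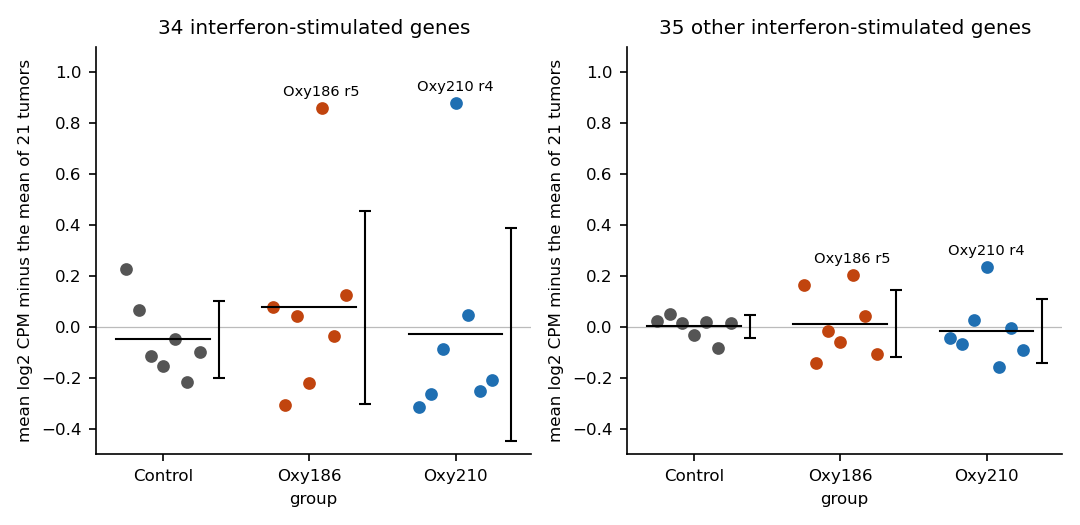
Mean difference of the 34 genes from their 21-tumor means, in log2 CPM, 1 point per tumor, with lines for the group mean and bars for the SD (n = 7). 1 Oxy186 tumor (0.86) and 1 Oxy210 tumor (0.88) sit above the other 19, which lie between −0.32 and 0.23.

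All 34 genes were above their 21-tumor mean in Oxy186 replicate 5, and 32 of 34 were in Oxy210 replicate 4. Oxy210 replicate 4 was the highest of the 21 tumors for 15 genes and Oxy186 replicate 5 for 8. One or other of them was therefore the highest tumor for 23 of 34 genes, against 10.2% of all 16990 genes. Both were above the other 19 tumors for 14 of the 34 genes: DDX60, IRF9, ISG15, HERC6, IFIT1, IFIT3, OAS2, OAS3, MX1, PARP9, IFI6, IFI27, IFI44 and IFI44L. Over all 16990 genes this held for 223, or 1.31%. No other pair of tumors was the top pair for more than 2 of the 34 genes. With the GC trend of each library removed, both were above the other 19 for 17 of 34 genes, compared with 2.34% of all genes. These counts are descriptions, since the 2 tumors were chosen on the same values.

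The height of the 2 tumors is given below as fold over the 21-tumor median, on log2 CPM with a prior count of 2. IFI27 was 8.07-fold over the median in Oxy186 replicate 5 and 4.91-fold in Oxy210 replicate 4, with the other 19 tumors between 0.585- and 2.35-fold. Its counts were 481 and 285 in the 2 tumors. IFI6 was 6.41- and 4.25-fold over its median in Oxy186 replicate 5 and Oxy210 replicate 4, with the others at most 2.38-fold. IFI44L was 5.06- and 6.77-fold, and its neighbour IFI44, also of unsettled function, was 3.33- and 4.69-fold. The 2 other measured members placed with these 4 genes were lower in both tumors. IFI35, a partner of the cytokine-induced protein NMI, was at 1.29- and 1.12-fold, and SAMD9, an inhibitor of translation and of poxviruses, was at 1.11- and 1.43-fold.

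IFIT1 was 4.10-fold over its median in Oxy186 replicate 5 and 6.05-fold in Oxy210 replicate 4, with counts of 233 and 336 against 27 to 98 in the other tumors. IFIT3, which stabilises IFIT1 on RNA, was at 1.57- and 2.19-fold. IFIT5 was at 1.30- and 1.56-fold and IFIT2 at 1.45- and 1.04-fold, both within reach of the other 19 tumors for at least 1 of the 2. MX1 was 4.85- and 4.61-fold over its median, with counts of 454 and 421, and the other tumors were at most 1.75-fold.

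ISG15, the ubiquitin-like modifier that is attached to other proteins, was at 3.95- and 3.10-fold, with the others at most 2.31-fold. HERC6 was at 1.53- and 1.58-fold, just above the next tumor at 1.49-fold. HERC5, the main human ligase for ISG15, was at 1.38- and 1.99-fold and USP18 at 1.03- and 1.19-fold, both inside or partly inside the range of the other tumors. OAS2 was at 2.07- and 1.95-fold against at most 1.64-fold elsewhere. OAS3 was above the others by a small margin, at 1.25- and 1.41-fold against at most 1.24-fold. OAS1, the most abundant OAS gene, was at 1.15- and 1.13-fold, below the highest of the other tumors at 1.22-fold.

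None of the 4 membrane restriction factors was higher in both tumors than in the other 19. IFITM1 was at 2.15- and 2.36-fold, BST2 at 2.08- and 2.48-fold, IFITM3 at 2.04- and 1.05-fold and IFITM2 at 1.15- and 0.992-fold. Among the signalling factors, IRF9 was at 1.63- and 1.67-fold against at most 1.32-fold elsewhere, whereas STAT2 was at 1.11- and 1.11-fold and IRF1 at 1.13- and 0.944-fold, inside the range of the others. PARP9, which partners the ubiquitin ligase DTX3L, was at 1.60- and 1.82-fold, above the rest at 1.33-fold or less. Of the sensors, DDX60 was at 2.16- and 2.58-fold, above all others, and IFIH1 was at 1.09- and 1.21-fold.

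**Figure D3:**
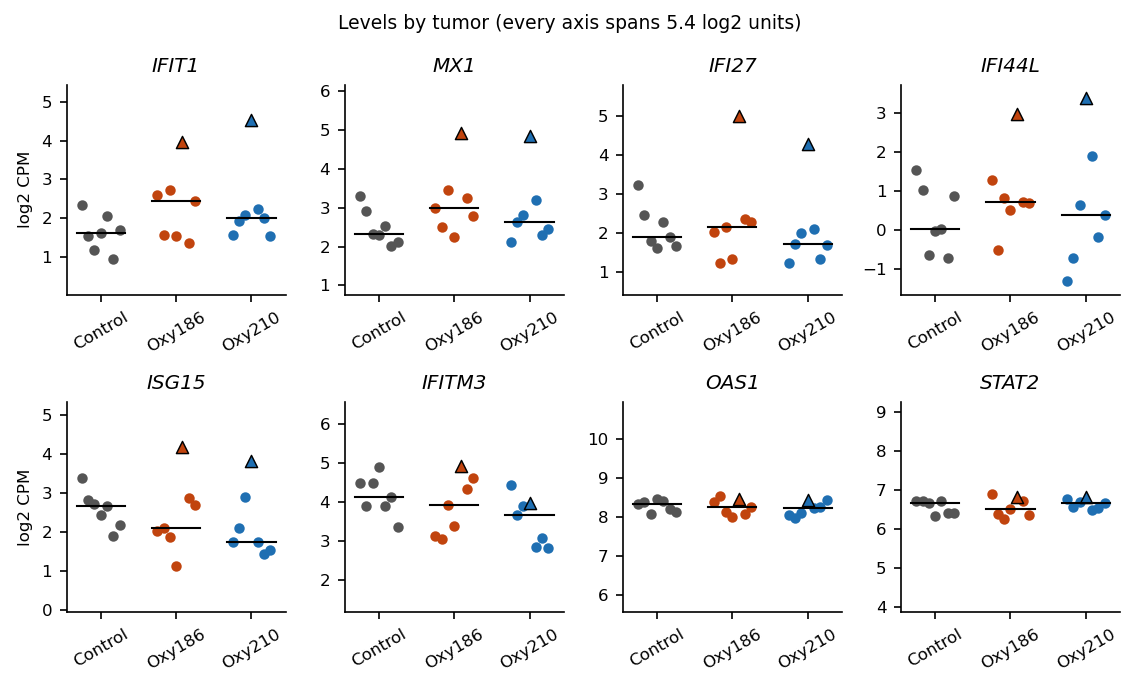
Log2 CPM of 8 of the genes, 1 panel per gene and 1 point per tumor in each group, with lines for the group medians and triangles for Oxy186 replicate 5 and Oxy210 replicate 4. The triangles are the top 2 points for IFIT1, MX1, IFI27, IFI44L and ISG15, and at least 1 of them lies among the other points for IFITM3, OAS1 and STAT2. Each axis spans the same number of log2 units.

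The genes that stood highest in the 2 tumors were often those with an ISRE core in the searched window. Both tumors were above the other 19 for 10 of 19 genes with the core, 3 of 9 without it and 1 of 6 whose promoter was not matched. The median SD over tumors was 0.656 in genes with the core, 0.357 in genes without it and 0.410 in those not matched. These sets also differed in level, with a median mean log2 CPM of 3.04, 4.04 and 2.78. The part of level in the SD was not tested. In Oxy186 replicate 5 the median gene with the core was 2.08-fold over its 21-tumor median and the median gene without it 1.40-fold. In Oxy210 replicate 4 these values were 2.36- and 1.22-fold. The elements were shared by genes that were above the other 19 in both tumors and by genes that were not. As printed above, IFIT1 and IFI27 carry 2 cores, and HERC5 and SAMD9 carry 3 and 1 in the full window.

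Genes of the same pathway outside the 37 moved less. A list of 39 further interferon-stimulated genes had 35 past the filter, with a mean difference from the 21-tumor mean of 0.20 in Oxy186 replicate 5 and 0.24 in Oxy210 replicate 4, and 4 of the 35 were above the other 19 tumors in both. None of 12 further sensors and adaptors was above the other 19 in both.

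Of the 9 interferon genes read, 2 had more than 3 counts in all. IFNE, which encodes interferon epsilon, had 4255 counts over the 21 tumors, with 122 to 343 per tumor, and IFNA1 had 450. IFNB1 had 1 count and IFNL2 3, and IFNA2, IFNK, IFNG, IFNL1 and IFNL3 had 0, which allows up to 3 counts over the 21 libraries for counting error alone. CXCL10 and CXCL11, chemokine targets of the pathway, had 1 and 4 counts in all. IFNE was at 3.85 log2 CPM in Oxy186 replicate 5 and 3.96 in Oxy210 replicate 4. Its median over the 21 tumors was 3.68, with a range of 3.08 to 4.38. IFNA1 was at 1.25 and 1.16 in these tumors, against a median of 0.43 and a range of −0.80 to 1.66. Both genes were thus above their medians in the 2 tumors, and both were highest in Oxy186 replicate 1. A part of these RNAs in the pattern was not tested.

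Values that could move with the 2 tumors were also read. The leukocyte markers summed to 11.2 CPM in Oxy186 replicate 5, the highest of the 21, and to 8.02 in Oxy210 replicate 4. The endothelial sums were 1.66 and 4.42 CPM and the fibroblast sums 69.1 and 54.3 CPM. The A549 sums were 17283 and 14625 CPM, the second being the lowest of the 21. The part of these differences in the interferon-stimulated genes was not tested. Across the 21 tumors the mean of the 34 genes had Pearson's r of 0.05 with the GC slope and −0.25 with the library total, as descriptions over points that include the 2 high tumors. With the marker sums it had r of 0.28 for leukocytes, 0.23 for endothelium, 0.25 for fibroblasts and −0.30 for A549. Without the 2 tumors these were −0.02, 0.56, −0.27 and 0.12.

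Co-variation was described over all 561 pairs of the 34 genes, as Pearson's r of log2 CPM across the 21 tumors. The median r was 0.29, with quartiles of 0.0025 and 0.50 and a range of −0.75 to 0.93, and 424 pairs were above 0 and 141 above 0.5. Over all pairs of genes tested the median was −0.0026. Without Oxy186 replicate 5 and Oxy210 replicate 4 the median fell to 0.07, with 320 of 561 pairs above 0 and 85 above 0.5. Leaving out Oxy210 replicate 4 alone gave 0.19 and leaving out Oxy186 replicate 5 alone gave 0.21, and leaving out any other tumor gave 0.28 to 0.31. Removing the GC trend gave 0.33 with all tumors and 0.08 without both. The pairs share libraries and depth, and most of the median correlation rested on the 2 tumors.

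**Figure D4:**
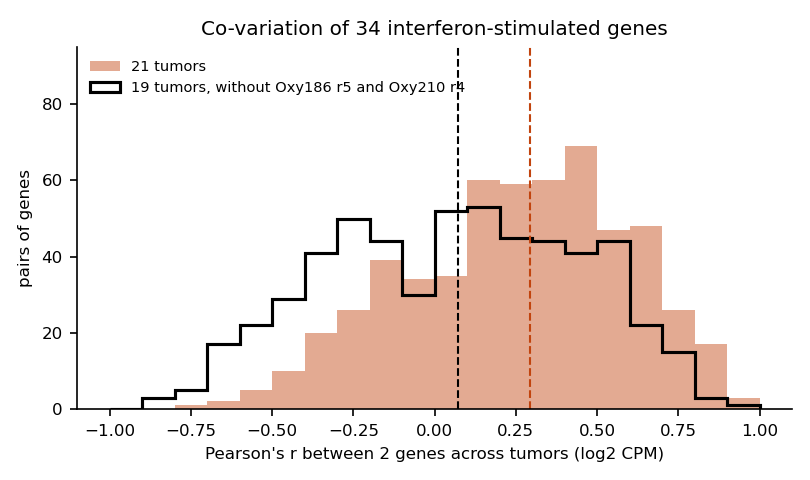
Pearson's r for the 561 pairs of the 34 genes over all 21 tumors and over the 19 without Oxy186 replicate 5 and Oxy210 replicate 4, with a line at each median. The median moves from 0.29 to 0.07.

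A part of the correlation remained among the other 19 tumors. The gene most correlated with the mean of the other 33 was IFI27, at r = 0.96 over 21 tumors and 0.87 over 19. MX1 went from 0.93 to 0.72, IFI44L from 0.88 to 0.75, IFI44 from 0.82 to 0.64, IFIT1 from 0.88 to 0.54 and IFI6 from 0.86 to 0.53. Other genes lost their correlation, with DDX60 going from 0.71 to 0.18, IFIT3 from 0.66 to 0.22 and PARP9 from 0.63 to −0.04. The least correlated over 21 tumors were IFIH1 (0.05), IRF1 (0.05) and ISG20 (0.10), the last an exonuclease that degrades viral RNA. Several genes followed the GC slope of the library instead: r with the slope was 0.89 for IFI35, 0.81 for IRF7 and 0.65 for IFITM3, and −0.90 for IFIH1 and −0.74 for SAMD9.

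Genes that lie side by side in the genome were read as pairs. IFI44 and IFI44L on chromosome 1 had r = 0.91 over 21 tumors and 0.83 over 19, and PARP9 and PARP14 on chromosome 3 had 0.82 and 0.71. IFIT1 had r = 0.75 with IFIT3, 0.68 with IFIT5 and 0.52 with IFIT2 (chromosome 10), and 0.45, 0.49 and 0.57 over 19. HERC5 and HERC6 on chromosome 4 had 0.62 and 0.51. IFITM2 and IFITM3 had 0.87 and 0.89, but 0.62 with the GC trend removed, and IFITM1 had r = −0.23 with IFITM2 and 0.03 with IFITM3, which were 0.26 and 0.12 with the GC trend removed. The 3 OAS genes of chromosome 12 were weakly correlated, with 0.14 between OAS2 and OAS3, 0.24 between OAS1 and OAS3 and 0.35 between OAS1 and OAS2. Neighbouring genes were thus not highly correlated in every cluster, and reads shared between paralogs could add to that of the IFITM genes.

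IFIT1 was used as the index gene for a test of co-variation between tumors. It was positively correlated with 18 of the other 33 genes at an adjusted p of 0.05 or less (two-sided permutation test with 100000 resamples, Benjamini-Hochberg over the 33), and 31 of 33 were above 0. Of all 16989 other genes, 1.17% had an r with IFIT1 at least as high as the lowest of the 18. The highest values were MX1 (r = 0.90, rho = 0.67), IFI44L (0.82, rho = 0.65) and PARP9 (0.82, rho = 0.68). The permutation p of MX1 was 1e-05, the smallest that these resamples can give, and the adjusted p was 3.3e-04. The lowest were IRF1 (−0.10, adjusted permutation p = 0.73), IFI35 (−0.01, 0.99) and ISG20 (0.002, 0.99). Spearman's rho passed for 7 of the 33.

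The 2 tumors farthest from the median of IFIT1 were again Oxy210 replicate 4 and Oxy186 replicate 5. Without them 24 of 33 genes were above 0 and 0 passed the adjusted threshold. MX1 was then at r = 0.65 (permutation p = 0.003, adjusted p = 0.091), IFI44L at 0.57 and PARP9 at 0.55. The relations of IFIT1 past the threshold thus rested on those 2 tumors. Centring each group on its own mean left 15 of 33, as did leaving out Oxy186 replicates 1 to 4.

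The genes outside the 37 that most resembled the programme were found by their r with the mean of the 34 genes over the 21 tumors. The 10 highest were REC8 (0.79), AP000254.2 (0.77), TDRP (0.73), LINC01305 (0.72), SOX9-AS1 (0.72), PRDM8 (0.71), AC003102.1 (0.71), ANKDD1A (0.71), COL4A6 (0.70) and AGAP9 (0.69). REC8, a cohesin subunit of meiosis, was at 4.89 and 4.74 log2 CPM in Oxy186 replicate 5 and Oxy210 replicate 4 against 2.28 to 4.42 elsewhere, and kept r = 0.60 over the other 19. COL4A6, a basement membrane collagen, kept 0.63, while AP000254.2 and SOX9-AS1 fell to 0.20 and 0.15.

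The 3 groups were then compared gene by gene, with edgeR's quasi-likelihood test and Benjamini-Hochberg adjustment over all genes tested. Of the 37 genes, 32 passed the filter in each comparison. In Oxy186 against control, 0 of 32 reached an adjusted p of 0.05, as did 0 of all 16291 genes (0%), and limma voom and DESeq2 also gave 0. At an unadjusted p under 0.05 there were 6 of 32, against 3.88% of all genes. The median log2 fold change of the 32 was 0.18, with 24 above 0, against 0.02 over all genes. Without Oxy186 replicate 5 the median was 0.01, with 17 of 32 above 0, so the shift was not present without that tumor.

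The smallest p-values in that comparison were those of IFITM1, IFIT3 and PARP9. IFITM1 ranged from 1.26 to 1.90 log2 CPM in the controls (median 1.44) and from 1.53 to 2.94 with Oxy186 (median 2.20). The groups overlapped, and the log2 fold change was 0.85 (95% interval 0.37 to 1.34, adjusted p = 0.836). IFIT3 went from a median of 2.83 to 3.17 log2 CPM, with a log2 fold change of 0.50 (0.12 to 0.87), and PARP9 from 5.17 to 5.61, with 0.39 (0.07 to 0.72), both at the same adjusted p.

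In Oxy210 against control, 0 of 32 reached the adjusted threshold, as did 0 of 16396 genes (0%). With limma voom and DESeq2 the count of the 32 was also 0, while over all genes DESeq2 had 21 higher and 71 lower. At an unadjusted p under 0.05 there were 7 of 32, against 14% of all genes. The median log2 fold change was 0.20 with 22 above 0, and 0.004 with 17 above 0 without Oxy210 replicate 4. PARP9 had the smallest p, with medians of 5.17 and 5.33 log2 CPM and a log2 fold change of 0.39 (0.08 to 0.70, adjusted p = 0.298). IFIT1 ranged from 0.96 to 2.35 log2 CPM in the controls (median 1.62) and from 1.54 to 4.52 with Oxy210, where the next highest tumor was at 2.25. Its log2 fold change was 1.06 (0.15 to 1.98, adjusted p = 0.316) with all tumors and 0.24 without Oxy210 replicate 4. DESeq2, which replaced the count of that tumor as an outlier, also gave 0.24. IFIT2 followed at 0.37 (0.05 to 0.68).

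The remaining index genes were not past the adjusted threshold in any of these comparisons, which does not show that they were equal. MX1 had medians of 2.31 log2 CPM in the controls, 2.99 with Oxy186 and 2.64 with Oxy210, with ranges of 2.01 to 3.30, 2.24 to 4.92 and 2.13 to 4.84. Its log2 fold change with Oxy186 was 0.89 (0.13 to 1.65, unadjusted p = 0.025 in edgeR, adjusted p = 0.836), and with Oxy210 it was 0.71 (adjusted p = 0.396). ISG15 had medians of 2.68, 2.11 and 1.75, with ranges of 1.91 to 3.40, 1.12 to 4.18 and 1.43 to 3.83. Its control median was the highest of the 3 groups while its highest tumor was treated with Oxy186. IFI27 had medians of 1.88, 2.16 and 1.70, and IFI6 of 3.11, 3.16 and 2.95. The 95% intervals with Oxy186 were −0.35 to 1.88 for IFI27 and −0.35 to 1.64 for IFI6 and so reached beyond a 2-fold change. In each of these the 3 groups overlapped, and the highest value of each treated group was one of the 2 tumors described above.

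IFI44L had medians of 0.02, 0.71 and 0.38 log2 CPM, with lowest values of −0.73, −0.52 and −1.32. OAS2 had medians of 2.05, 2.27 and 1.53, and BST2, which did not pass the filter in the group comparisons, of −0.51, −0.78 and −1.32. The abundant genes were steadier: OAS1 had medians of 8.35, 8.27 and 8.23 with ranges of 8.09 to 8.47, 8.02 to 8.55 and 7.99 to 8.44, and STAT2 of 6.66, 6.52 and 6.67. IRF1 had medians of 4.19, 3.85 and 3.87, IRF9 of 2.42, 1.69 and 2.42, and IFITM3 of 4.14, 3.92 and 3.66. None of these differences passed the adjusted threshold where tested.

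The 2 compounds, given at the same dose and schedule, were compared with each other directly. 0 of 32 genes reached the adjusted threshold, as did 0 of 16361 genes (0%). With limma voom and DESeq2 the count of the 32 was also 0, while over all genes DESeq2 had 7 higher. In edgeR 1 of the 32 had an unadjusted p under 0.05, against 4.06% of all genes. This was ISG20, with 5.71 to 6.23 log2 CPM with Oxy186 (median 6.00) and 5.51 to 5.76 with Oxy210 (median 5.66). Its log2 fold change, Oxy186 over Oxy210, was 0.35 (0.14 to 0.57, adjusted p = 0.876). OASL was at 0.42 (−0.19 to 1.03) and IFITM1 at 0.51 (−0.24 to 1.26). The median over the 32 genes was 0.03 with 19 above 0, and 0.12 with 23 above 0 without the 2 high tumors. The 95% interval lay within a 2-fold change in either direction for 19 of the 32 genes, and the rest of the intervals reach a 2-fold difference between the compounds. In the comparisons of Oxy186 and Oxy210 with control this count was 23 and 24 of 32, and those comparisons share the control tumors.

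Oxy186 replicates 1 to 4 had been separated from replicates 5 to 7 by a principal component analysis of these same libraries, so a difference of this subset from the controls is not independent of the values. Against the 7 controls, 1 of 32 genes was called, which took a change of more than 2-fold together with an adjusted p of 0.05 or less, compared with 8.34% of all 16852 genes, most of them lower (8.13%). The 1 gene was IRF7, with 98 to 188 counts in the 4 tumors and 196 to 368 in the controls, which did not overlap. Its log2 fold change was −1.01 (−1.48 to −0.53, adjusted p = 0.006). With no fold limit, 6 of 32 reached the adjusted threshold, against 19.7% of all genes. HERC6 (0.57, adjusted p = 0.017) and PARP9 (0.43, 0.031) were higher, against 4.73% of all genes. IFI35 (−0.94, 0.019), IFITM3 (−0.84, 0.036) and ISG15 (−0.87, 0.044) were lower along with IRF7, against 15% of all genes. The median of the 32 was −0.02, with 15 above 0.

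These differences followed GC content. The log2 fold change of the 32 genes had r = −0.64 with exon GC, at −0.40 for every 10 points of GC, and over all genes r was −0.71 at −0.51 for every 10 points. Of 19 genes below 50% GC, 14 were above 0, with a median of 0.28, and of 13 genes at or above 50%, 1 was above 0, with a median of −0.52. The 1 exception was IFITM1. When a GC trend for each library was entered as an offset, r was 0.18, and 1 of 32 genes reached the adjusted threshold and the fold limit, against 4.05% and 1.2% of all genes. This was IFITM1, whose exons partly overlap another gene as given above, at 1.40 (adjusted p = 0.017), and it had not passed without the offset (0.79, adjusted p = 0.0502). IRF7 then turned to 0.43 and ISG15 to 0.20, neither past the threshold.

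**Figure D5:**
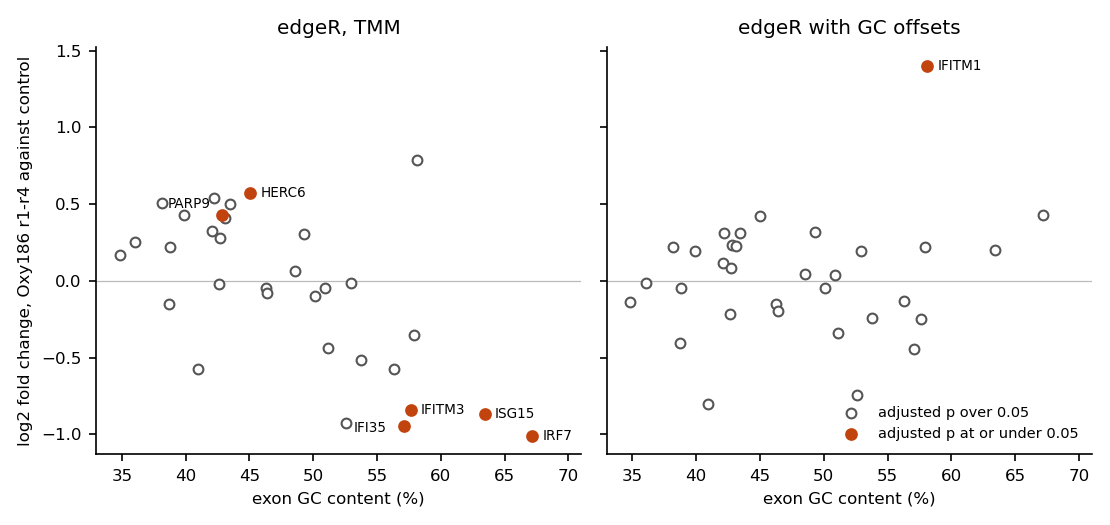
Log2 fold change of the 32 genes in Oxy186 replicates 1 to 4 over the 7 controls (vertical axis) by exon GC content in percent (horizontal axis), before and after a GC trend for each library was entered as an offset. Without the offset the genes slope down (r = −0.64), and with it r is 0.18, with IFITM1 alone past the adjusted threshold.

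Other genes of the pathway were read from the same fits. In the 3 comparisons of 7 against 7, 0 of the receptors and JAK-STAT components, sensors and adaptors, ligands and further interferon-stimulated genes reached the adjusted threshold. In Oxy186 replicates 1 to 4 against control, 1 of 14 receptors and JAK-STAT components was higher and 3 were lower, where the shares of all genes were 4.73% higher and 15% lower. JAK1 was higher by 0.49 on the log2 scale, and TYK2 (−0.71) and the feedback inhibitors SOCS1 (−1.65) and SOCS3 (−1.11) were lower. Of 12 sensors and adaptors, 2 were higher (the DNA sensor IFI16 and the kinase TBK1) and 4 lower (STING1, IKBKE, TICAM1 and IRF3). Of 35 further interferon-stimulated genes, 5 were higher and 3 lower. With GC offsets TICAM1 was the only one of these genes still past the threshold, against 4.05% of all genes, and PLSCR1, which had not passed without the offsets (adjusted p = 0.345 in edgeR), was lower with them (adjusted p = 0.026).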

How the data were processed

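RNA of 21 tumors was sequenced, and the authors trimmed reads (Trimmomatic 0.39), aligned them with STAR 2.7.6a to a combined human and mouse reference, kept human alignments and counted them per gene with featureCounts (Subread 2.0.1) on GENCODE 37. Replicates were not pooled. The deposited values used here are raw counts per human gene. The deposited log2 CPM table, which holds the controls and Oxy186 replicates 1 to 4, was not used. Groups came from sample titles. The genes and lists were chosen with earlier results of these data known. Genes were filtered by filterByExpr and scaled by TMM. Comparisons used edgeR 4.0.16 (quasi-likelihood, R 4.3.3) on the groups compared, called at a fold over 2 and an adjusted p of 0.05, as the study set its threshold. limma 3.58.1, which the study used, and DESeq2 1.42.0 were alternatives, beside RLE scaling, no filter, GC offsets and leaving out tumors. Log2 CPM used a prior count of 2. GC trends were splines with 4 degrees of freedom per library on exon GC (GENCODE 44). The edgeR test was tried on simulated counts with known fold changes and no GC trend. The labels do not say more of each tumor than its group and number, so p-values measure the spread between tumors as sampled. The genes named followed a rule: fixed index genes, the 3 smallest p-values per comparison, those past the threshold, the extremes of correlation and gene clusters. The 2 high tumors, and fits without them, were chosen after the data were seen. Depth of 13787493 to 17865119 counts limits genes of few counts.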

Additional observations from a re-analysis of the deposited data

Results flagged for a closer look

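Each of the 34 genes was examined in each group of 7 tumors for a single tumor far from the others, by Dixon's gap at the 95% level. Of 102 such groups 12 held one, where chance alone gives about 1 in 20, and the groups share tumors and so are not independent. In 7 the tumor was Oxy210 replicate 4, which was the highest of its group. In log2 CPM it had 4.52 for IFIT1 (next highest tumor 2.25), 4.84 for MX1 (3.19), 5.20 for IFI6 (3.49), 4.28 for IFI27 (2.11), 6.19 for PARP9 (5.56), 3.27 for HERC5 (2.38) and 7.48 for OAS3 (7.11). In 2 it was Oxy186 replicate 5, with 5.00 for IFI27 (2.35) and 4.73 for DDX60 (3.65). The remaining 3 were other tumors: DDX58 was at 1.41 in Oxy210 replicate 5 (next 0.27), IFIT3 was lowest in control replicate 6 at 2.15 (next 2.63) and SAMD9 was lowest in Oxy186 replicate 6 at 4.31 (next 4.93). The DDX58 value rests on 40 counts.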

How the results depend on the processing

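In the comparisons of 7 against 7, all 54 alternative counts of interferon-stimulated genes called or past the adjusted threshold were 0, as in the fits reported. The median pairwise correlation of 0.29 was 0.071 without Oxy186 replicate 5 and Oxy210 replicate 4 and 0.084 without both with the GC trend removed. It ranged from 0.19 to 0.31 when 1 tumor was left out and stayed within that range or up to 0.34 under rank correlation, a prior count of 0.5, scaling by library size alone, GC removal, centring within groups, the 17 other libraries and a minimum of 10 counts. The 18 genes correlated with IFIT1 became 7 with Spearman's rho and 0 without the 2 farthest tumors. For Oxy186 replicates 1 to 4 the 1 called gene became 0 with DESeq2, 0 with RLE normalization and 0 with all 21 libraries in 1 fit, and 0 to 3 when 1 Oxy186 tumor was left out (0 without replicate 4, 3 without replicate 1). The 6 genes past the adjusted threshold became 11 with DESeq2 and 1 with GC offsets, and 2 to 7 with 1 tumor left out (2 without replicate 3 or replicate 4). With GC offsets the log2 fold changes of IRF7 and ISG15 reversed to 0.43 and 0.20. The cause of the other changes was not tested. Over single named genes, 149 alternative values kept their call, 30 lost the call and 4 reversed. Correlations with IFIT1 that had not passed counted as kept even where their sign changed. For IRF1, for example, r was −0.10 and then 0.04 with the GC trend removed.

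The replicate numbers of the groups did not pair the tumors: correlations of same-numbered deviations ran from −0.40 to 0.33. With the replicate block, 4 genes were called in Oxy186 replicates 1 to 4 and 4 reached the adjusted threshold. With the replicate block and GC offsets 0 were called and 0 reached the adjusted threshold, and IRF7 and ISG15 reversed to 0.41 and 0.13. In the other 3 comparisons the block left all counts of these interferon-stimulated genes at 0.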
